A study of Mus musculus with 8 samples.

Results

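The genes described here are 35 chaperones, folding enzymes, stress sensors, degradation factors and translocon subunits of the endoplasmic reticulum (ER), picked by gene symbol from a count table of 25239 symbols. All 35 were found in it. Derl3 had 1 to 38 counts per library and was too low to test, which left 34.

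The ER is where secreted and membrane proteins are folded. Chaperones such as Hspa5 (BiP) and Hsp90b1 (GRP94) hold unfolded chains, lectin chaperones bind their sugars, and protein disulfide isomerases form their disulfide bonds. When unfolded protein builds up, the sensors Ern1 (IRE1), Atf6 and Eif2ak3 (PERK) start the unfolded protein response, in which the transcription factors XBP1 and ATF6 raise chaperone and degradation genes. Osteoblasts, the bone-forming cells, secrete much collagen and depend on this machinery.

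Primary cells from the calvaria (skull cap) of mice, labelled as osteoblasts, were profiled by sequencing of polyadenylated RNA. There were 4 libraries of genotype WT from littermate controls and 4 of genotype KO(OSX-SphK2), a knockout of the sphingosine kinase gene SphK2 named with OSX (osterix, an osteoblast transcription factor). Age, strain, the number of mice behind a library and the way the gene was deleted are not given in the sources used here. It is therefore open to doubt whether the libraries of a group are separate animals, and a p-value here speaks only for the variation among these libraries, which may be technical. The title of the series sets the work in the context of neutrophil development.

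Library totals ran from 14347495 to 19065421 counts. The targeted gene differed by less than its error (a log2 fold change of −0.05 with an SE of 0.30 for Sphk2), with ratios of 0.919, 1.13, 0.875 and 0.980 between libraries of the same number. Counts over the whole gene thus do not check the labels, and the group is called knockout-labelled. Levels are given in CPM, read counts scaled to a common library size, here with TMM factors. The osteoblast factor Sp7 stood at 3.29 to 46.2 CPM, and Bglap (osteocalcin) at no more than 0.58 CPM except in knockout-labelled 1, at 42.3 CPM. Markers of macrophages and monocytes (12 genes) added up to 38084 to 50561 CPM among controls and 42449 to 62138 CPM under the knockout label, above the 12 osteoblast markers at 6432 to 16881 and 4157 to 15699.8 CPM. Markers of plasma and B cells, of which plasma cells are rich in ER, added up to 89.0, 129.7, 113 and 423 CPM (controls 1 to 4) and 80.3, 91.7, 91.7 and 293 CPM (knockout-labelled 1 to 4), nearly all of it Sdc1, at 79.03 to 411.9 CPM. In the libraries numbered 4, where this sum was highest, Cd79b reached 9.44 and 9.83 CPM and Jchain 1.40 and 1.68 CPM, and their part in the results was not tested. The libraries numbered 4 stood apart in both groups: 8 osteoclast markers added up to 9890.0 CPM in control 4 and 6559 CPM in knockout-labelled 4, and to 44.8 to 128.5 CPM in the other 6. In bulk samples, fewer cells of a type and less RNA per cell cannot be told apart. Results are given for all 8 libraries and for numbers 1 to 3 alone.

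The ER stress element, the DNA motif through which ATF6 and XBP1 act on chaperone genes, was looked for in the members' promoters. It reads CCAAT, 9 bases of any kind, then CCACG, and was searched on both strands of RefSeq promoter windows (GRCm38.p6, 250 bases before to 50 after the start site). Windows were found for 28 of the 35 members, with Ero1l and Ero1lb under their newer symbols Ero1a and Ero1b, and not for Hyou1, Manf, Atf6, Derl1, Sec61a1, Hspa13 and Sil1. The element was in 10 of the 28 windows (35.7%), and in 37 of 27025 symbols (0.137%) of the whole promoter table. The stretches of Hspa5, Hsp90b1, Calr and Canx are shown, the first members in the order of the list that hold it. They are written 5′ to 3′ on the strand of the gene with each element in capitals, and an element on the opposite strand appears as its reverse complement.

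Hspa5, chr2:34772020-34772048, plus strand: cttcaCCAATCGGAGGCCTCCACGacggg
Hsp90b1, chr10:86705513-86705676, minus strand: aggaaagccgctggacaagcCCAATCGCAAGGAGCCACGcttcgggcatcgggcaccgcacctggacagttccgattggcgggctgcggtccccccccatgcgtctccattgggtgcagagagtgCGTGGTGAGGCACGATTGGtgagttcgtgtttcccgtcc
Calr, chr8:84847055-84847113, minus strand: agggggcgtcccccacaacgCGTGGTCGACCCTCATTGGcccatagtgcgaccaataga
Canx, chr11:50325780-50325838, minus strand: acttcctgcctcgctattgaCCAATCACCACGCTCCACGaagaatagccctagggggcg

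The Hspa5 stretch lies before the RefSeq start site but inside the gene as GENCODE M21 draws it (chromosome 2, 34771970 to 34777547), and the other 3 stretches lie outside their GENCODE genes. Hsp90b1 holds 2 elements, 1 on each strand. The element of Calr is on the opposite strand and that of Canx on the strand of the gene. Pdia6, Dnajc3, Creld2, Syvn1, Derl3 and Ero1lb also hold the element. The second ER stress element, ATTGG, 1 base, then CCACG, was found for Dnajb11 and Herpud1 and in 0.0444% of all symbols. CCACG alone, which is part of both elements, was found for 24 of the 28 (85.7%) and in 35.5% of all symbols, and the core of the UPR element, TGACGTGG, for 0 of the 28 and in 0.714% of all symbols. These matches describe letters and not binding.

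**Figure D1:**
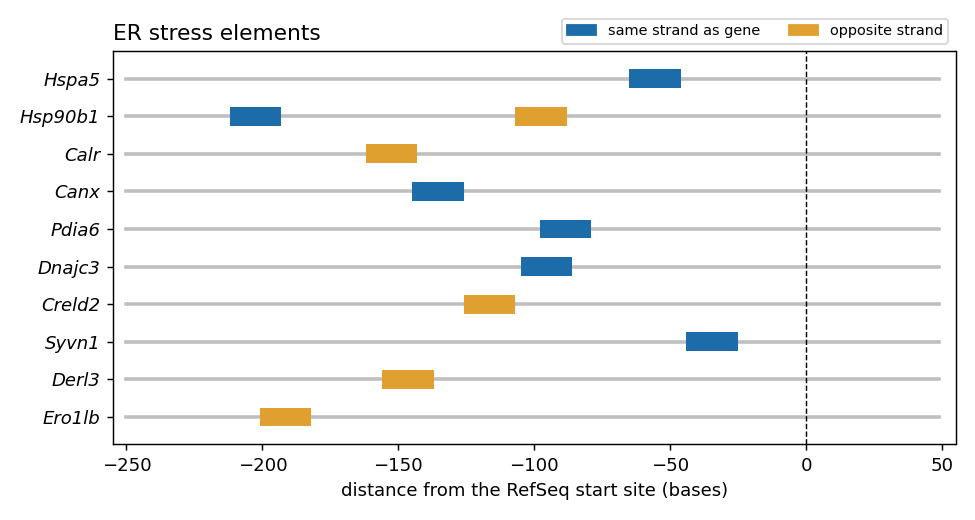
Position of each ER stress element in the promoter windows of the 10 members that hold it, in bases from the RefSeq start site (dashed line at 0), in blue for the strand of the gene and orange for the opposite strand. Hsp90b1 has 2 elements and the other genes 1 each.

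With all 8 libraries, no gene of the list passed the threshold between the groups. In numbers 1 to 3 alone, the chaperones Hspa5, Hsp90b1, Calr and Canx and the disulfide isomerases Pdia3 and Pdia6 were among the genes higher under the knockout label, Hspa5 by 1.63 to 1.72 times, and in pair 4 Hspa5 was not (a ratio of 0.939). In that fit 10 of 34 members rose, namely Hspa5, Hsp90b1, Calr, Canx, Pdia3, Pdia6, Sdf2l1, Manf, Xbp1 and Herpud1, and 1 fell, Ero1l. Of all 12919 genes tested there, 7.78% rose and 6.29% fell. Over all 8 libraries 0 of 34 members and 0% of 12837 genes were called higher, and 0 members and 0% of genes lower (edgeR quasi-likelihood test, adjusted p under 0.05), with a smallest adjusted p of 0.980 among members. At an unadjusted p under 0.05, 2 members were higher and 0 lower, against 3.19% and 1.72% of all genes. DESeq2 and limma-voom called 0 members as well. The median log2 fold change of the members was 0.11 beside −0.02 over all genes, and 0.18 beside −0.005 in numbers 1 to 3.

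Libraries of the same number deviated together in these data and were taken as pairs, though no label states a pairing. With the number as a block, 0 members were called, where 1.31% of all genes were higher and 1.18% lower. The block in numbers 1 to 3 alone gave 19 members that rose and 1 that fell, against 12.3% and 11.9% of all genes. The median difference of the 34 members, knockout-labelled minus control in log2 CPM, was 0.20, 0.16 and 0.18 in pairs 1, 2 and 3, with 29, 26 and 28 members higher. In pair 4 it was −0.05, with 20 members lower. Higher in pairs 1 to 3 and lower in pair 4 were 16 members (11.9% of all genes), and the reverse held for 2 (14.7% of all genes). In 4 of 4 pairs 9 members were higher (15.4% of all genes) and 2 lower (13.4%). Groups of 4 that did not overlap were found for 0 members, where 2.32% of all genes had the knockout-labelled group above and 1.27% below. Among numbers 1 to 3 the groups did not overlap for 20 members with the knockout label above and 1 below, against 18.2% and 16.5% of all genes.

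Single libraries moved the counts in numbers 1 to 3. Leaving out each of the 6 in turn, which was decided with these results in view, gave 6 members that rose without knockout-labelled 1 and 13 without control 2, and 0 that fell in any of the 6 fits. The share of all genes that rose moved too, at 4.35% and 8.66% in these 2 fits, with 3.5% and 7.55% that fell. Hspa5, Hsp90b1, Calr, Pdia3, Pdia6 and Sdf2l1 rose in 6 of 6 fits, Herpud1 in 5, Canx in 2, Manf in 1 and Xbp1 in 0. Markers of dividing cells, 6 genes among them Mki67, added up to 206, 371, 262 and 359 CPM (controls 1 to 4) and 814, 891, 833 and 501 CPM (knockout-labelled 1 to 4), and 5 of the 6 passed in numbers 1 to 3. Each was higher under the knockout label in 4 of 4 pairs and differed least in pair 4. Mki67 differed by 0.55 in log2 CPM in pair 4, against 1.55 to 2.18 in pairs 1 to 3. None of the 6 was at 0 in all libraries. Their part in the result was not tested. The sum of the osteoblast markers overlapped between the groups, at 7709.6, 16881 and 10210.5 CPM in controls 1 to 3 beside 15699.8, 10588 and 10771 CPM. Single markers differed: Bglap2, Dmp1 and Phex were above controls 1 to 3 in knockout-labelled 1 to 3, and Ibsp reached 1082 CPM in knockout-labelled 1. Spp1 and Dmp1 passed in numbers 1 to 3 with the block (adjusted p = 0.000213 and 0.0494), and 0 passed without it. Col1a2, Sp7, Runx2 and Sparc had negative log2 fold changes there. Of the 12 macrophage and monocyte markers, 2 passed in numbers 1 to 3, where 7.78% of all genes rose and 6.29% fell. Mrc1 was at 0.44 (SE 0.08, adjusted p = 0.00931) and Cd14 at −0.66 (SE 0.12, adjusted p = 0.0102). With the block there, Cd68, Adgre1 and Apoe also passed as higher under the knockout label, and Lyz2 and C1qa as lower. The part of these osteoblast, macrophage and monocyte markers was not tested.

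**Figure D2:**
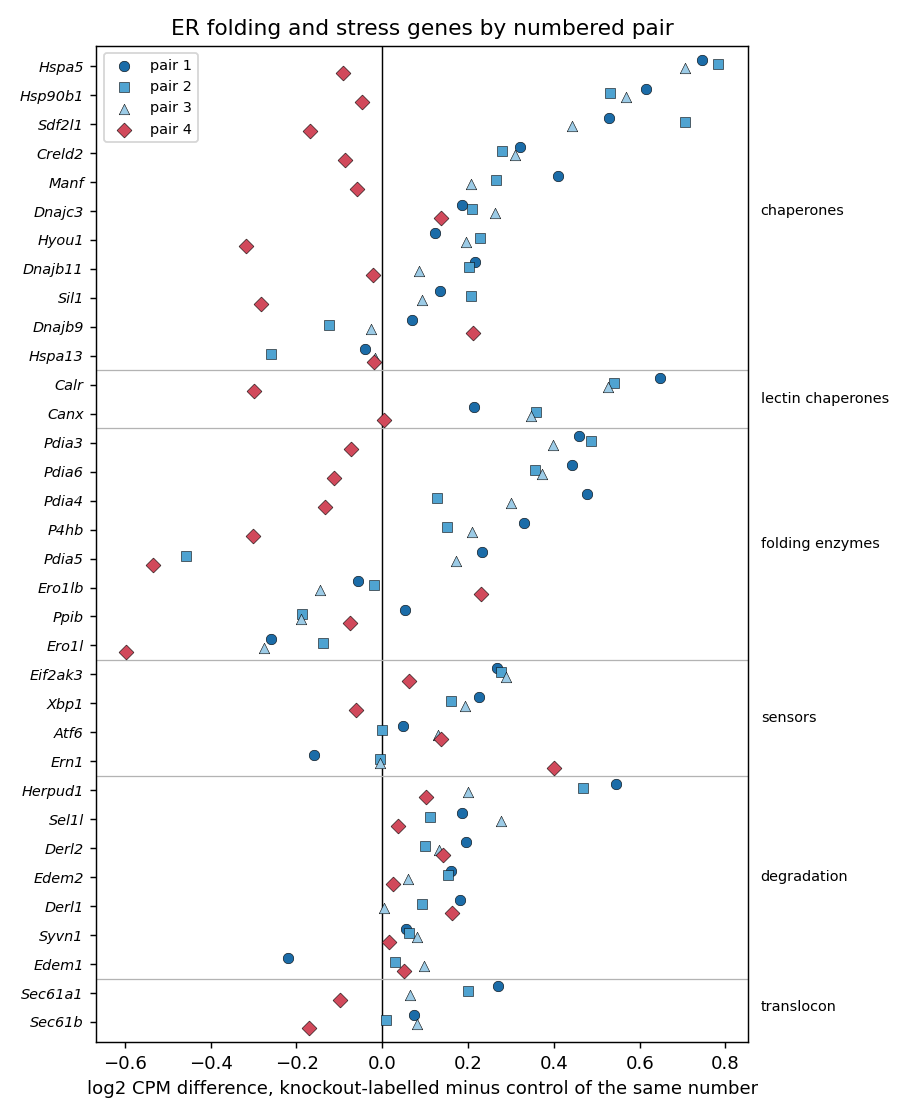
Difference in log2 CPM between the knockout-labelled library and the control of the same number (horizontal axis) for the 34 tested members, by role, with 1 symbol per pair. In pairs 1 to 3 Hspa5, Hsp90b1, Sdf2l1 and Calr lie between 0.44 and 0.78, and in pair 4 these 4 genes lie below 0.

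Among the luminal chaperones, Hspa5, the chaperone that also holds the stress sensors inactive, had the largest difference. It measured 404.7, 432.4, 404.3 and 726.02 CPM in controls 1 to 4, against 678.9, 744.1, 659.6 and 681.7 CPM in the knockout-labelled libraries of the same numbers. The 4 knockout-labelled libraries and control 4 were high, and controls 1 to 3 were low. The means were 492 ± 157 CPM in controls and 691 ± 36.7 CPM under the knockout label (SD, n = 4 each). Its log2 fold change of 0.49 (SE 0.21) did not pass (edgeR adjusted p = 0.9999, exact two-sided permutation p = 0.114, where 0.0286 is the smallest possible). In numbers 1 to 3 the difference was 0.75 (SE 0.07, adjusted p = 0.000482).

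Hsp90b1, the ER form of HSP90, measured 576.2, 681.3, 601.8 and 887.5 CPM in controls 1 to 4, against 883.03, 984.7, 892.9 and 858.95 CPM in the knockout-labelled libraries of the same numbers. As for Hspa5, the groups overlapped through control 4 alone. The log2 fold change was 0.40 (SE 0.16) with all libraries (adjusted p = 0.980, exact permutation p = 0.0857) and 0.57 (SE 0.08, adjusted p = 0.00299) in numbers 1 to 3. Sdf2l1, a partner of the J-domain cochaperones, measured 21.9, 21.1, 21.95 and 59.9 CPM (controls 1 to 4) and 31.6, 34.5, 29.9 and 53.3 CPM (knockout-labelled 1 to 4). Both libraries numbered 4 were above the rest, and Sdf2l1 rose by 0.57 (SE 0.08, adjusted p = 0.00270) in numbers 1 to 3. Manf, a secreted factor induced by ER stress, measured 60.8, 72.7, 68.6 and 76.9 CPM (controls 1 to 4) and 80.7, 87.4, 79.1 and 73.8 CPM (knockout-labelled 1 to 4). Only its libraries numbered 4 made the groups overlap, and it rose by 0.29 (SE 0.08, adjusted p = 0.0381) in numbers 1 to 3.

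The J-domain cochaperones of Hspa5 had smaller differences. Dnajb9 (ERdj4) measured 34.9, 36.1, 37.4 and 26.1 CPM (controls 1 to 4) and 36.6, 33.1, 36.8 and 30.2 CPM (knockout-labelled 1 to 4). Its groups overlapped, at 0.02 (SE 0.14) with all libraries and −0.02 (SE 0.07) in numbers 1 to 3. Dnajb11 (ERdj3) was at 0.17 (SE 0.05) and Dnajc3 (p58IPK, an inhibitor of PERK) at 0.22 (SE 0.07) in numbers 1 to 3, and both passed there only with the block (adjusted p = 0.0358 and 0.00991). The same held for Hyou1, a large chaperone that exchanges the nucleotide of Hspa5, at 0.19 (SE 0.07), and Creld2, a stress-induced ER protein, at 0.31 (SE 0.11) (adjusted p = 0.0253 and 0.0198 with the block). In pair 4 Hyou1 had the lowest ratio of the chaperones, 0.802. Hspa13, a divergent HSP70, measured 51.9, 61.4, 53.8 and 25.5 CPM (controls 1 to 4) and 50.4, 51.3, 53.2 and 25.1 CPM (knockout-labelled 1 to 4). It was low in both libraries numbered 4 and lower in 4 of 4 pairs, at −0.10 (SE 0.32), and did not pass. Sil1, another nucleotide exchange factor of Hspa5, was at −0.02 (SE 0.33) with overlapping groups.

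**Figure D3:**
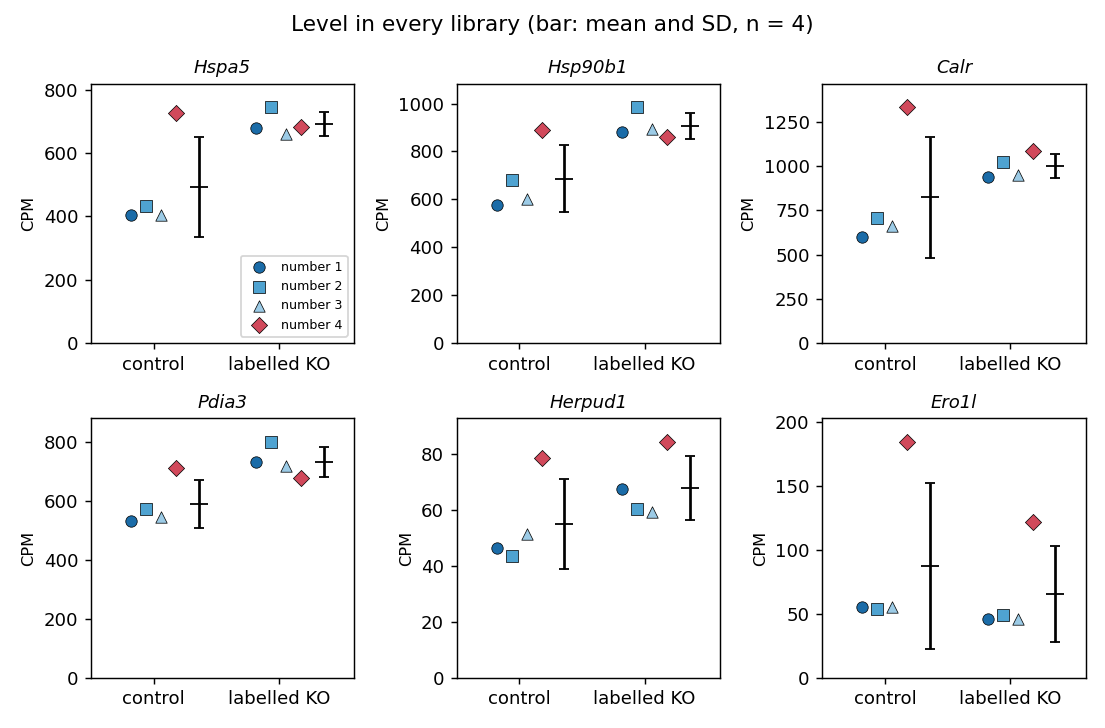
CPM in every library for 6 members, with controls on the left and knockout-labelled libraries on the right of each panel, 1 symbol per replicate number, and the mean with SD (n = 4) as a black bar. For Hspa5, Hsp90b1 and Pdia3 control 4 sits within the range of the knockout-labelled libraries, and for Calr it lies above them.

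Both lectin chaperones, which hold glycoproteins by a trimmed sugar chain, rose in numbers 1 to 3. Calr, the soluble calreticulin, measured 597.9, 705.8, 662.05 and 1334.3 CPM in controls 1 to 4, against 937.00, 1026.8, 953.3 and 1084.1 CPM in the knockout-labelled libraries of the same numbers. Control 4 was the highest of the 8 and controls 1 to 3 were the lowest. Its difference was 0.28 (SE 0.26, adjusted p = 0.9999) with all libraries and 0.57 (SE 0.08, adjusted p = 0.00231) in numbers 1 to 3. Canx, the membrane-bound calnexin, measured 567.4, 534.1, 514.8 and 435.7 CPM (controls 1 to 4) and 658.2, 684.5, 654.7 and 437.2 CPM (knockout-labelled 1 to 4). It was low in both libraries numbered 4, where Calr was high, and it rose by 0.31 (SE 0.07, adjusted p = 0.0172) in numbers 1 to 3.

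Among the folding enzymes, 2 disulfide isomerases rose and an oxidase that recharges them fell in numbers 1 to 3. Pdia3 (ERp57), the partner of the lectin chaperones, measured 531.8, 570.2, 544.5 and 710.4 CPM in controls 1 to 4, against 730.8, 798.9, 717.2 and 675.7 CPM in the knockout-labelled libraries of the same numbers. Control 4 again reached the range of the other group. Its difference was 0.31 (SE 0.14) with all libraries (adjusted p = 0.9999, exact permutation p = 0.0571) and 0.45 (SE 0.07, adjusted p = 0.00371) in numbers 1 to 3. Pdia6 (P5), which dampens IRE1 signalling, measured 175.96, 205.6, 194.8 and 279.4 CPM (controls 1 to 4) and 238.9, 263.3, 252.2 and 258.4 CPM (knockout-labelled 1 to 4), and rose by 0.39 (SE 0.07, adjusted p = 0.00877) in numbers 1 to 3.

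P4hb, the classical disulfide isomerase and also a subunit of collagen prolyl hydroxylase, measured 611.3, 714.97, 657.04 and 966.3 CPM (controls 1 to 4) and 768.5, 793.5, 759.5 and 784.3 CPM (knockout-labelled 1 to 4). Control 4 was the highest. It was at 0.07 (SE 0.16) with all libraries and 0.23 (SE 0.07, adjusted p = 0.0767) in numbers 1 to 3, where it passed with the block (adjusted p = 0.0113). Pdia4 (ERp72), at 0.29 (SE 0.11) in numbers 1 to 3, also passed only with the block (adjusted p = 0.00993). Pdia5, another isomerase, measured 13.1, 22.6, 14.5 and 13.1 CPM (controls 1 to 4) and 15.4, 16.4, 16.3 and 9.03 CPM (knockout-labelled 1 to 4), and its groups overlapped at −0.15 (SE 0.26).

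Ero1l, the oxidase that passes disulfide bonds to P4hb and is also known to respond to low oxygen, measured 55.2, 54.1, 55.3 and 184.7 CPM in controls 1 to 4, against 46.2, 49.2, 45.6 and 122.1 CPM in the knockout-labelled libraries of the same numbers. The libraries numbered 4 were the highest, and within each number the knockout-labelled library was lower, with ratios of 0.835, 0.908, 0.826 and 0.661. Its difference was −0.41 (SE 0.53, adjusted p = 0.9999) with all libraries, −0.32 (SE 0.08, adjusted p = 0.0967) with the block and −0.22 (SE 0.06, adjusted p = 0.0447) in numbers 1 to 3. Without control 4 alone it was 0.25, in the other direction. The call in numbers 1 to 3 was lost when any 1 of those 6 libraries was left out, with adjusted p up to 0.176. Its paralog Ero1lb ranged from 31.4 to 47.3 CPM among controls and from 31.03 to 55.5 CPM among the others. Ppib, cyclophilin B, a proline isomerase that acts on collagen, measured 57.4, 64.4, 62.6 and 139.01 CPM (controls 1 to 4) and 59.6, 56.6, 54.8 and 131.98 CPM (knockout-labelled 1 to 4). Both libraries numbered 4 were the highest, and the groups overlapped, at −0.11 (SE 0.07) in numbers 1 to 3.

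Of the sensors and their factor, Xbp1 rose in numbers 1 to 3, Eif2ak3 passed there only with the block, and Ern1 and Atf6 passed in none of these fits. Xbp1, whose messenger IRE1 splices, measured 122.6, 120.7, 124.8 and 174.2 CPM (controls 1 to 4) and 143.4, 135.03, 142.6 and 167.01 CPM (knockout-labelled 1 to 4). Control 4 was the highest, and it rose by 0.20 (SE 0.06, adjusted p = 0.0470) in numbers 1 to 3. Gene counts do not show that splicing. Eif2ak3 measured 57.8, 50.5, 50.9 and 47.2 CPM (controls 1 to 4) and 69.6, 61.3, 62.2 and 49.3 CPM (knockout-labelled 1 to 4). It was higher in 4 of 4 pairs, at 0.23 (SE 0.13) with all libraries and 0.28 (SE 0.08, adjusted p = 0.0503) in numbers 1 to 3 (adjusted p = 0.00421 with the block).

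Ern1 measured 62.2, 50.03, 50.6 and 48.4 CPM (controls 1 to 4) and 55.7, 49.9, 50.4 and 63.9 CPM (knockout-labelled 1 to 4). The highest values were in knockout-labelled 4 and control 1, and the groups overlapped at 0.06 (SE 0.13), with −0.06 (SE 0.10) in numbers 1 to 3. Atf6 measured 159.97, 151.2, 135.5 and 85.1 CPM (controls 1 to 4) and 165.4, 151.1, 148.3 and 93.6 CPM (knockout-labelled 1 to 4). It was low in both libraries numbered 4, at 0.07 (SE 0.24) between the groups.

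The degradation genes, which take misfolded proteins out of the ER for the proteasome, had small differences, and all 7 tested were higher in pairs 2, 3 and 4, and 6 of them in pair 1. Herpud1, which helps assemble the ubiquitin ligase complex, measured 46.4, 43.7, 51.5 and 78.6 CPM in controls 1 to 4, against 67.7, 60.4, 59.2 and 84.4 CPM in the knockout-labelled libraries of the same numbers. The libraries numbered 4 were the highest of each group. Its difference was 0.30 (SE 0.22, adjusted p = 0.9999) with all libraries, 0.33 (SE 0.09, adjusted p = 0.102) with the block and 0.41 (SE 0.08, adjusted p = 0.0128) in numbers 1 to 3. Sel1l, the scaffold of that complex, was higher in 4 of 4 pairs and at 0.19 (SE 0.06) in numbers 1 to 3, where it passed only with the block (adjusted p = 0.0243). Syvn1 (HRD1), the ligase itself, lay between 64.2 and 73.3 CPM in the 8 libraries and was higher in 4 of 4 pairs, by 0.02 to 0.08 in log2 CPM. Derl1 and Derl2, of the Derlin family, and Edem2, a mannosidase-like protein, were higher in 4 of 4 pairs by 0.005 to 0.19 and passed in none of these fits. Edem1 was lower in pair 1, with a difference of −0.22 in log2 CPM, and was at −0.01 (SE 0.10) with all libraries. Derl3 reached 2.66 CPM in control 4 and at most 0.95 CPM elsewhere.

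The 2 translocon subunits, of the channel through which chains enter the ER, were not called without the block. Sec61a1, the pore, measured 155.7, 170.8, 169.1 and 194.5 CPM (controls 1 to 4) and 187.9, 196.3, 176.9 and 181.6 CPM (knockout-labelled 1 to 4). Its difference was 0.11 (SE 0.11) with all libraries and 0.18 (SE 0.06) in numbers 1 to 3, where it passed with the block (adjusted p = 0.0373). Sec61b, a small subunit, measured 28.1, 29.96, 31.1 and 69.9 CPM (controls 1 to 4) and 29.6, 30.2, 32.9 and 62.1 CPM (knockout-labelled 1 to 4), and both libraries numbered 4 were above the other 6.

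Summed over the 35 members, the level was 5706, 6139, 5807 and 7998 CPM in the 4 controls and 7378, 7783, 7335 and 7360.2 CPM under the knockout label. Control 4 was above every other library, and controls 1 to 3 were the lowest. For Hspa5, control 4 was 0.81 from the mean of controls 1 to 3 in log2 CPM, and knockout-labelled 4 was −0.02 from the mean of its group. The same pair of shifts was 0.52 and −0.10 for Hsp90b1, 0.54 and 0.04 for Pdia6, 0.55 and 0.02 for P4hb, and 1.03 and 0.16 for Calr. With 1 library of that number per group, the difference between these shifts was not tested.

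Other members, and Calr again, had both libraries numbered 4 on one side of the other 6. Both lay above all 6 other libraries for 13 of 34 members, against 34.2% of all genes, and below them for 7, against 33.8%. Above were Calr, Ppib, Dnajb11, Sdf2l1, Creld2, Xbp1, Herpud1, Syvn1, Edem2, Sec61b, Ero1l, Ero1lb and Sil1. Below were Canx, Dnajb9, Dnajc3, Atf6, Eif2ak3, Sel1l and Hspa13. The shifts of Ero1l were 1.75 in control 4 and 1.38 in knockout-labelled 4, and those of Hspa13 were −1.122 and −1.04. Genes of one role went in different directions, with Calr above and Canx below, and Xbp1 above while Atf6 and Eif2ak3 were below. The osteoclast markers of these libraries are given above, and their part in the shifts was not tested.

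**Figure D4:**
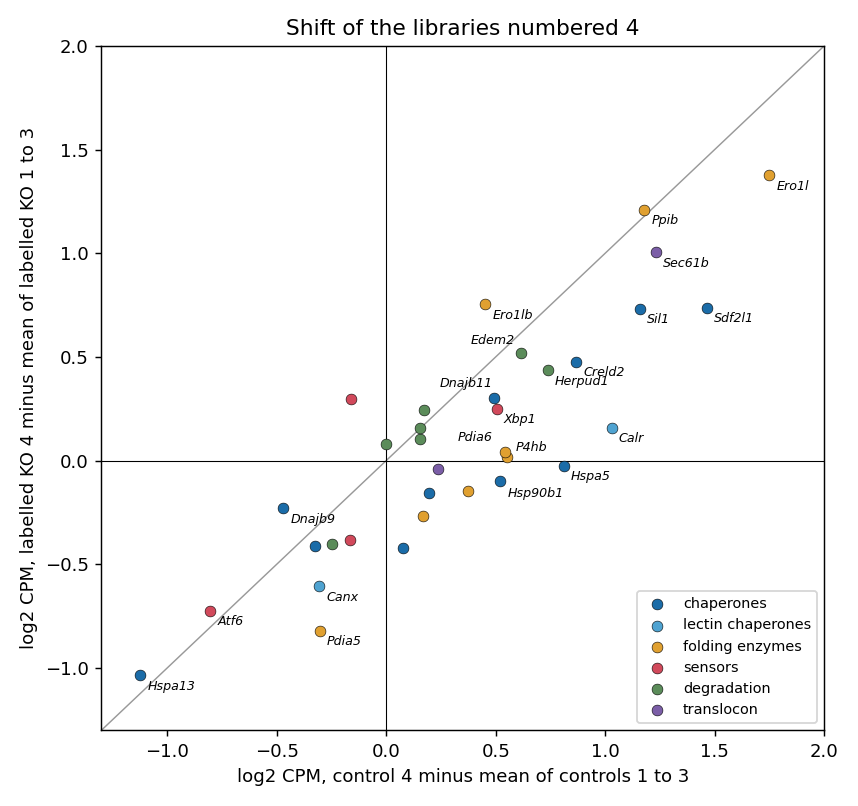
Shift of control 4 from the mean of controls 1 to 3 (horizontal axis) and of knockout-labelled 4 from the mean of knockout-labelled 1 to 3 (vertical axis), in log2 CPM, for the 34 tested members, coloured by role, with a grey line where both shifts are equal. Ero1l, Ppib and Sec61b are high in both and Hspa13 and Atf6 low in both, while Hspa5, Hsp90b1, Pdia6 and P4hb are shifted by 0.52 to 0.81 in control 4 and lie near 0 in knockout-labelled 4.

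Members with and without the ER stress element in their window were set side by side as a description. Of the 9 tested members with it, 5 rose in numbers 1 to 3 (Hspa5, Hsp90b1, Calr, Canx and Pdia6), and the median log2 fold change was 0.31, from −0.07 to 0.75. Of the 18 tested members whose window lacked it, 4 rose (Pdia3, Sdf2l1, Xbp1 and Herpud1) and Ero1l fell, and the median was 0.16, from −0.22 to 0.57. Of all genes 7.78% rose and 6.29% fell in that fit. With the block in numbers 1 to 3, 7 of the 9 and 9 of the 18 rose, where 12.3% of all genes did. In pair 4 the medians were −0.05 and −0.04. The ranges overlapped, and Syvn1 and Ero1lb, which hold the element, were at 0.07 and −0.07. Herpud1 and Dnajb11, counted among the 18, hold the second ER stress element.

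Per kilobase of exon in GENCODE M21, the most abundant members over the 8 libraries were Calr at 317 ± 85.8 CPM per kb (SD, n = 8), P4hb at 265 ± 37.1, Pdia3 at 210.2 ± 31.4, Hsp90b1 at 197 ± 38.0, Hspa5 at 139.9 ± 35.4 and Canx at 119.5 ± 20.9 CPM per kb. The SD ranges of neighbours in this order overlapped, and the order differed between libraries: P4hb was above Calr in controls 1 and 2, and Canx above Hspa5 in controls 1 to 3. After Canx came Pdia4 at 64.8 ± 8.54 CPM per kb. The sensors were scarce, with Atf6 at 14.8 ± 3.29, Eif2ak3 at 9.31 ± 1.30 and Ern1 at 6.59 ± 0.741 CPM per kb, and Xbp1 was above them at 43.5 ± 6.19 CPM per kb. Derl3 was the lowest at 0.332 ± 0.424 CPM per kb.

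Of 112 other ER genes on a separate list, 106 were tested. Over all 8 libraries 0 passed with edgeR, and 1 was higher and 2 lower at an unadjusted p under 0.05. With the block 0 rose and 2 fell, where 1.31% and 1.18% of all genes did. In numbers 1 to 3 there were 9 that rose and 7 that fell, near the 7.78% and 6.29% of all genes. The median log2 fold changes in these 3 fits were −0.01, −0.01 and 0.01. The 2 that fell with the block were Mogs and Prkcsh. Mogs, glucosidase I, which trims the first glucose from new glycoproteins, measured 52.8, 48.9, 53.8 and 54.9 CPM in controls 1 to 4, against 39.9, 39.8, 40.4 and 43.7 CPM in the knockout-labelled libraries of the same numbers. The groups did not overlap, where 1.27% of all genes had the knockout-labelled group below and 2.32% above. The difference of Mogs was −0.36 (SE 0.09, adjusted p = 0.510) with all libraries (exact permutation p = 0.0286, DESeq2 adjusted p = 0.00119) and −0.36 (SE 0.06, adjusted p = 0.0412) with the block. Other genes of this list lay above without overlap, among them Selenos, Ngly1 and Dnajc10. They had the same exact permutation p and an edgeR adjusted p of 0.9999 with all libraries. Prkcsh, the beta subunit of glucosidase II, measured 167.4, 195.3, 189.5 and 224.5 CPM (controls 1 to 4) and 122.5, 133.5, 127.7 and 182.8 CPM (knockout-labelled 1 to 4). It was at −0.46 (SE 0.16, adjusted p = 0.815) with all libraries, −0.47 (SE 0.07, adjusted p = 0.0385) with the block and −0.52 (SE 0.07, adjusted p = 0.00214) in numbers 1 to 3. Ganab, the catalytic subunit that pairs with Prkcsh, was at −0.01 (SE 0.19) with all libraries.

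Other genes called in numbers 1 to 3 were named after their values were seen. Higher were Sec11c of signal peptidase at 0.61 (SE 0.13), the ER peroxiredoxin Prdx4 at 0.54 (SE 0.10), the translocon-associated Ssr2 at 0.46 (SE 0.11), Mcfd2 of a cargo receptor at 0.38 (SE 0.05), and Tram1, Tmx1, Spcs2, Rpn2 and Fkbp11. Among the lower were Mbtps1, the protease that activates ATF6, at −0.29 (SE 0.06), Kdelr1, which returns chaperones to the ER, at −0.24 (SE 0.07), and Uggt2 and Itpr1. In the PERK branch, the factor Atf4 was at −0.03 (SE 0.19) with all libraries and 0.02 (SE 0.06) in numbers 1 to 3. Atf3, another transcription factor of the branch, was higher in 4 of 4 pairs, at 0.27 (SE 0.16) with all libraries and 0.37 (SE 0.15, adjusted p = 0.158) in numbers 1 to 3, where it passed with the block (adjusted p = 0.00188). Trib3, a target of the branch, was at 0.41 to 0.79 CPM in controls 1 to 3 and 0.93 to 2.23 CPM in knockout-labelled 1 to 3, and at 8.11 and 5.68 CPM in the libraries numbered 4. Its difference in numbers 1 to 3 was 1.35 (SE 0.43, adjusted p = 0.0702), and it passed there with the block (adjusted p = 0.0448). The target Ddit3 (CHOP) measured 6.56, 6.91, 8.04 and 26.8 CPM (controls 1 to 4) and 6.95, 8.04, 9.50 and 16.3 CPM (knockout-labelled 1 to 4), with the libraries numbered 4 highest and a difference of 0.19 (SE 0.16) in numbers 1 to 3.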

How the data were processed

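Polyadenylated RNA of 8 libraries was measured. The authors deposited one table of raw read counts per gene symbol, made with STAR 2.7.11b and featureCounts 2 on mm10 (GRCm38), per the submitters' processing notes. Annotation, strand setting and handling of multiple alignments are not given in the sources used here, so antisense overlaps and near-identical copies are uncertain. Totals were 14347495 to 19065421 counts. Groups and numbers came from the sample titles.

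Counts were tested with edgeR 4.0.16 in R 4.3.3 (filterByExpr, TMM, robust quasi-likelihood F test, genotype alone, all 8 libraries), with Benjamini-Hochberg adjustment over all genes tested and a threshold of 0.05. CPM used TMM factors, and log2 CPM a prior count of 2. Exact two-sided permutation tests of log2 CPM used 70 splits. Alternatives were RLE and upper-quartile scaling, no filter, CPM of at least 1 in every library, DESeq2 1.42.0, limma-voom 3.58.1, the replicate block and libraries left out.

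Libraries of one group differed beyond sampling noise (chi-square per degree of freedom 8.56 to 307), so each was 1 sample. With group means removed, same-numbered libraries correlated across genes at 0.460 to 0.829, where unlike numbers gave −0.757 to 0.572 and the own number ranked first for 6 of 8, and at 0.161 to 0.376 among numbers 1 to 3, where unlike numbers gave −0.255 to −0.023. Removing group means makes the values of same and unlike numbers depend on each other. Every pair exceeded 0.1, so the numbers were used as pairs. That choice rests on the same counts to which the block was then fitted, and no label states a pairing. Fits were also tried on simulated counts of 12837 genes, with 200 changed by a log2 fold of 1. These were the fits of 8 libraries, with and without the block, and that of numbers 1 to 3 without it. The block in numbers 1 to 3 alone was not simulated. The counts were drawn anew for each fit from its own means and spread, so the fits were not compared on the same counts. The fit of 8 libraries found 0% of the changed genes without the block and 82% with it. That of numbers 1 to 3 found 74%, and false calls were 0, 23 and 14. The 23 and the 14 were a larger share of the calls of their fits than the threshold of 0.05. The largest log2 fold change of a member in numbers 1 to 3 was 0.75, below the simulated 1.

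The members and lists were chosen with earlier results of these data known. Values in every library are given for 12 members named by the rule, for members called with or without the block, and, in each direction, for the 3 members ranked first by unadjusted p. Members that rose in numbers 1 to 3, and some others, are given in full as well. Of the other ER genes, those past the threshold with or without the block are named. Some items are not reported here.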

Additional observations from a re-analysis of the deposited data

Results flagged for a closer look

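For each of the 35 members in each group of 4 libraries, the gap between the most distant library and its nearest neighbour was divided by the range of the group in log2 CPM. This ratio was above Dixon's critical value in 18 of 70 groups, where about 5% is expected of independent groups. The groups share the same 8 libraries and were not independent, and the share over all genes was not computed. Both libraries numbered 4 lay above all 6 others for 34.2% of all genes and below them for 33.8%. In each of the 18 groups the library that stood apart was the one numbered 4. Control 4 was high for Hspa5 (0.885), Ppib (0.869), Dnajb11 (0.834), Sdf2l1 (0.961), Xbp1 (0.910), Derl3 (0.858), Sec61b (0.889), Ero1l (0.983) and Sil1 (0.852). Knockout-labelled 4 was high for Ppib (0.906), Dnajb11 (0.869), Syvn1 (0.861), Sec61b (0.857) and Ero1l (0.924) and low for Canx (0.901), Pdia5 (0.892), Sel1l (0.854) and Hspa13 (0.929). The part of the osteoclast markers of these libraries in the values was not tested.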

How the results depend on the processing

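The median log2 fold change of the members was positive under every alternative run, from 0.08 to 0.23, the highest without control 4. With all 8 libraries 0 members were called under every scaling, filter and tool. Over all genes, DESeq2 called 127 higher and 49 lower, and the replicate block 168 and 151, each against 0. The block without number 4 called 1593 and 1539 genes, with 19 members higher and 1 lower. With libraries left out, settings added after the results were known included, genes higher ran from 0 to 1131, genes lower from 0 to 986, members higher from 0 to 13 and members lower from 0 to 1. The members called came with number 4 left out of both groups. The block changed no call of a member over all 8 libraries. Log2 fold changes that changed sign were mostly near 0. With libraries left out they ran as follows: Pdia5 −0.266 to 0.0823, P4hb −0.00545 to 0.230, Ppib −0.503 to 0.295, Dnajb9 −0.0828 to 0.0810, Ern1 −0.0607 to 0.145, Atf6 −0.0953 to 0.222, Edem1 −0.0489 to 0.0582, Edem2 −0.0559 to 0.266, Sec61b −0.362 to 0.374, Hspa13 −0.309 to 0.103, Ero1l −0.893 to 0.253, Ero1lb −0.199 to 0.149, Sil1 −0.242 to 0.360, Sphk2 −0.319 to 0.213. Under limma-voom the values were Sec61b 0.00146, Ero1lb −0.00444 and Sil1 0.0427, with upper-quartile scaling Edem1 5.46e-05, and with the replicate block Sil1 0.0350. With the block and a number left out, they were Edem1 0.0584 and Sil1 0.00150 without 1, Sil1 0.0154 and Sphk2 0.00518 without 3, and Dnajb9 −0.0241, Ern1 −0.0547, Sec61b 0.0578, Ero1lb −0.0705 and Sil1 0.148 without 4. The causes were not tested. Counts limit Derl3 most.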
